A study of Mus musculus with 9 samples.

Results

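The genes described here encode the subunits of integrins and laminins. They were taken as the protein-coding RefSeq genes whose symbol is Itga or Itgb followed by only digits or by 1 or 2 letters, or Lama, Lamb or Lamc followed by 1 digit. This gave 36 of 21887 protein-coding genes on chromosomes 1 to 19, X and Y, of which 25 encode integrins (17 alpha and 8 beta subunits) and 11 encode laminins (5 alpha, 3 beta and 3 gamma chains). The rule reads symbols alone and uses no measured value.

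Integrins are cell surface receptors made of an alpha and a beta chain that bind the extracellular matrix or other cells and link them to the cytoskeleton. Laminins are the cross-shaped alpha, beta and gamma trimers of basement membranes. In the oligodendrocyte lineage the integrin of alpha 6 and beta 1 is a receptor for laminin, integrins that contain the alpha v chain have been tied to progenitor migration and proliferation, and loss of the laminin alpha 2 chain impairs myelination.

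Chromatin immunoprecipitation and sequencing (ChIP-seq) had mapped H3K27ac, an acetylated histone residue of active promoters and enhancers, and SOX6, a transcription factor of the oligodendrocyte lineage. H3K27ac was mapped in O1-positive oligodendrocytes (OL) and in oligodendrocyte progenitor cells (OPC), each derived from 2 mouse epiblast stem cell (EpiSC) lines, named 129O1 and EpiSC5, which gave 4 peak lists. SOX6 was mapped in OL of EpiSC5 and in OPC of 129O1 and of EpiSC5, which gave 3 lists. Each list belongs to 1 library, so the 2 lines are the replicates of a state and SOX6 in OL has none. Per the labels, the lines came from 129SvEv and 129S1/SvImJ mice and carry no engineered allele named there. OPC were expanded with 20 ng/ml bFGF and 20 ng/ml PDGFA and without sonic hedgehog, and had been sorted on CD140a and NG2, while OL were collected as O1-positive cells. Both states were grown on a coating of poly-ornithine and 10 µg/ml laminin, so laminin protein was supplied to the cells in every group.

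The H3K27ac lists held 33808 and 31060 peaks in OL of 129O1 and EpiSC5, and 30846 and 27731 in OPC of 129O1 and EpiSC5. The SOX6 lists held 3949 peaks in OL of EpiSC5, and 22883 and 15490 in OPC of 129O1 and EpiSC5. No counts of reads come with the lists, so sequencing depth is unknown, and a list shortened by depth cannot be told apart from a state with fewer sites. The libraries come from bulk cells, so a peak in more of the cells and a stronger peak per cell cannot be told apart. Markers followed the labelled states. Of 8 oligodendrocyte markers tested 7 had wider H3K27ac in OL and 0 narrower, and of 6 OPC markers 0 were wider and 3 narrower (limma, as below). Of 4 astrocyte, 6 neuron, 3 Schwann cell, 2 endothelial, 1 fibroblast and 1 pluripotency marker tested, 1 neuron marker was wider, and 1 neuron, 1 Schwann cell and 1 fibroblast marker narrower.

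The measure for each gene is the H3K27ac breadth, the length in kb covered by peaks over the gene body plus 10 kb each side. Breadths are printed as found. For the test they were scaled to equal total covered length of the 4 lists and taken as log2 of kb plus 1, a scale that understates changes of genes with little coverage. Of the 36 genes, 23 reached a mean scaled breadth of 1 kb and were tested, 14 integrins and 9 laminins, and 56.9% of all protein-coding genes did. H3K27ac lay at 20 of the 36 in all 4 lists (56.7% of all genes) and at 4 in no list (27.9% of all genes). Those 4 were Itga4, Itga5, Itgam and Itgax.

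Between OL and OPC, 4 of the 23 genes were called wider in OL and 9 narrower (limma adjusted p under 0.05 over all 12459 genes tested, with the same sign in both lines). Of all genes tested, 12.5% were wider, 16.4% narrower and 28.9% either. The 14 integrins held 3 wider and 5 narrower genes, and the 9 laminins 1 wider and 4 narrower. The median log2 change was −0.03 over the 23 genes and −0.24 over all genes tested. Without scaling these medians were 0.07 and −0.13, so the members' median lay 0.21 above that of all genes with scaling and 0.20 without. Relative to the median of all genes, the 4 wider genes lay at 1.06 to 2.01 and the 9 narrower at −1.58 to −0.46. Both OL breadths were above both OPC breadths, after scaling, at 6 of the 23 genes (23.5% of all genes tested), and below them at 11 (51.3%). Raw p was under 0.05 for 16 of the 23 genes and for 5541 of all 12459 genes tested. No call, over members or all genes, remained without either OPC list in turn or without the filter on low breadth, where limma gave raw p under 0.05 to 8, 7 and 17 members. From the higher-scoring 50% of each list no member was called, and the change was 1.72 at Itga6, 0.31 at Itga7, −1.60 at Lama4, −0.40 at Lamb2 and −0.50 at Lamb3, each over 1.5 times from the values given below for these genes. With a pseudocount of 0.25 kb it was likewise −2.58 at Itgae, −2.35 at Itgb5, 1.26 at Itgb7 and −2.32 at Lama1, and only Itgae of these 4 was called.

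**Figure D1:**
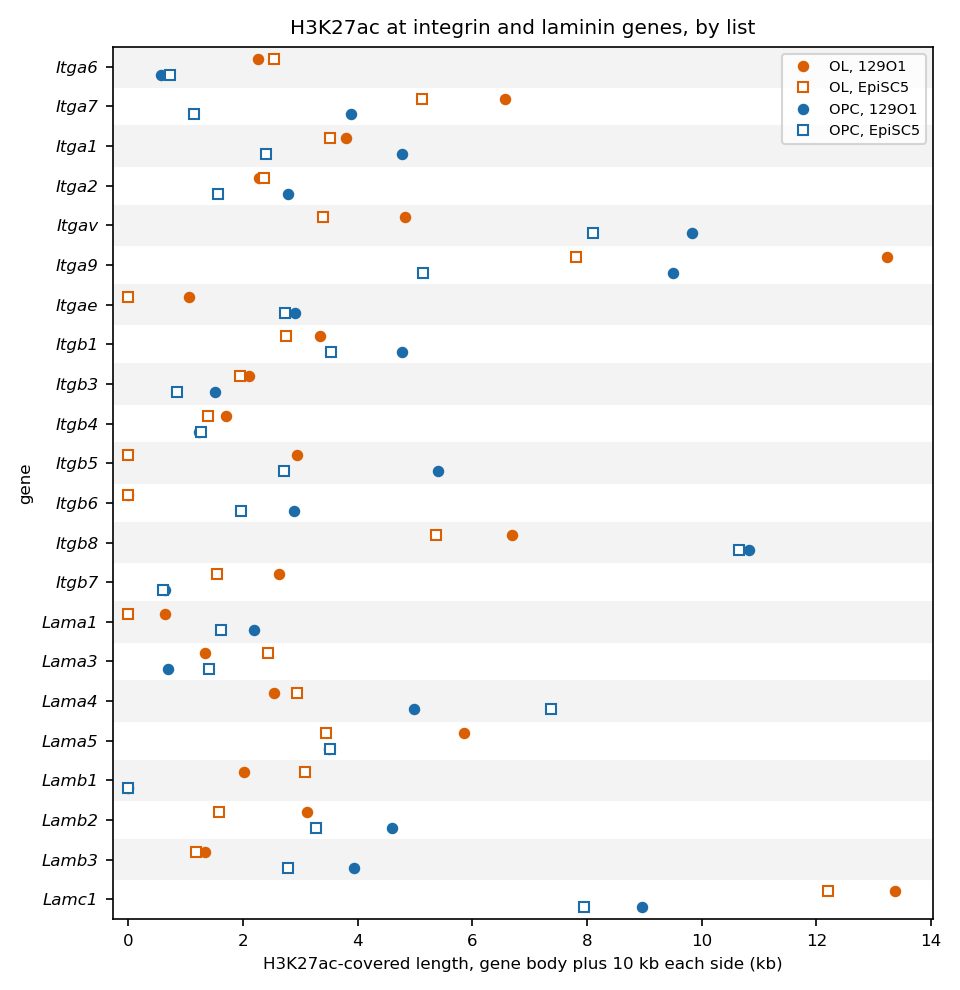
H3K27ac-covered length in kb (x axis, body plus 10 kb each side, unscaled) of 22 integrin and laminin genes tested, with OL in orange above OPC in blue, circles for 129O1 and open squares for EpiSC5, 1 point a list. Lamb1 is listed at 0 in both OPC lists and Itgb6 at 0 in both OL lists.

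Start sites of 22 of the genes could be placed from RefSeq promoter windows of GRCm38.p6, the assembly that mm10 names. Among the genes without such a window were Itga6, Itga7, Itgae, Lama1 and Lama4, whose changes were called. Of the 22 start sites, 6 and 3 lay in H3K27ac peaks of OL from 129O1 and EpiSC5, against 43.51% and 32.99% of 17492 genes. In those of OPC from 129O1 and EpiSC5 lay 8 and 4, against 50.56% and 46.35%. Among the 22, only Itgav, Itgb1 and Itgb8 had their start site in all 4 H3K27ac lists, against 31.56% of 17492 genes. For 14 of the 22 it lay in none, against 47.82%. The same 3 genes were those with a start site in SOX6 peaks of both OPC lists (5.288% of genes). Itgb1 was the 1 of the 22 with it in SOX6 of OL (6.214%). The 250 bases before the start site are shown for these 3 genes because SOX6 and H3K27ac meet there, with capitals for bases inside SOX6 peaks of both OPC lists. Itgb1 was added after its values were seen, since its H3K27ac breadth was not called.
Itgav, chr2:83724147-83724396, plus strand: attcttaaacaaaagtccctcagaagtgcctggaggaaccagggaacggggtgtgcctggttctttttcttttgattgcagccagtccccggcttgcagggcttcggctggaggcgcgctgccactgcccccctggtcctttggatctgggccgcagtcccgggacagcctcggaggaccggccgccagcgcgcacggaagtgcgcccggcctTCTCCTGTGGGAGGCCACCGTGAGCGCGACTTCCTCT
Itgb1, chr8:128685404-128685653, plus strand: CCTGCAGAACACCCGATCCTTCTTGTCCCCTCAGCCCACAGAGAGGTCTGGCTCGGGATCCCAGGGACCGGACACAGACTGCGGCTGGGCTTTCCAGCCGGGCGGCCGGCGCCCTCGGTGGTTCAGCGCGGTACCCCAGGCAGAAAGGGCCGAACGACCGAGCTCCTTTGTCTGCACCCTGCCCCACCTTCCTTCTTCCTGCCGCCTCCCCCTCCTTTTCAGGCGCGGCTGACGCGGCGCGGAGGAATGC
Itgb8, chr12:119238277-119238526, minus strand: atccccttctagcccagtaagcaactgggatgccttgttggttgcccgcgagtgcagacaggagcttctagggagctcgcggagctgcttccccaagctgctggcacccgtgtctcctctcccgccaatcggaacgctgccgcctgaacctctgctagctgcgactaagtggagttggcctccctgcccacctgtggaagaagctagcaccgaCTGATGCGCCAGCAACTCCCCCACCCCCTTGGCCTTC

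All 250 bases were in SOX6 peaks of both OPC lists at Itgb1, and the last 37 before the start site at Itgav and at Itgb8. The SOX6 summits of Itgb1 lay at −71 bp from the start site in OL of EpiSC5, and at −60 and −11 bp from it in OPC of 129O1 and EpiSC5. CpG dinucleotides numbered 18, 21 and 12 in the stretches of Itgav, Itgb1 and Itgb8, and the median of all windows was 10. The letters AACAAT, a core bound by SOX proteins, were searched on both strands (ATTGTT on the other) and were in none of the 3. Of all stretches of that length 8.216% hold them. Only these exact letters were searched, so variants of the core may be present.

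Itgb5 and Lamb2, both narrower in OL, are shown because their start-site peaks differed between lists. Capitals mark bases inside the H3K27ac peak of OPC from 129O1.
Itgb5, chr16:33829415-33829664, plus strand: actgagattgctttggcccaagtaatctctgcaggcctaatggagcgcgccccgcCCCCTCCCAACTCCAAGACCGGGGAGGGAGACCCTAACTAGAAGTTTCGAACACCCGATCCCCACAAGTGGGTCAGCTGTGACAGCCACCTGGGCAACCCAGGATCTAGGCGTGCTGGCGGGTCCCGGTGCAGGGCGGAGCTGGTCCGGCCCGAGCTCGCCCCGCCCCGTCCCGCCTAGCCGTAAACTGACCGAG
Lamb2, chr9:108479612-108479861, plus strand: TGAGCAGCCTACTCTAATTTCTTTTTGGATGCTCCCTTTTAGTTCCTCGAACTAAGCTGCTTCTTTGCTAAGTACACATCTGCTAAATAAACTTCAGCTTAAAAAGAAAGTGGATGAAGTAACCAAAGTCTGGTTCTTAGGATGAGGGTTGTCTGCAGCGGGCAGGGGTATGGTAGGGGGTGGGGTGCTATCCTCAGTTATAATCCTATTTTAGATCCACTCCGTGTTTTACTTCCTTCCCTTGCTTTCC
The start site of Itgb5 lay in a peak in OL of 129O1 and in OPC of 129O1, and that of Lamb2 in OPC of 129O1 alone. CpG counts were 18 and 3, and AACAAT was in neither stretch.

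Among the laminin-binding alpha chains, both genes tested were wider in OL. Itga6 encodes alpha 6, the partner of beta 1 in the laminin receptor of the lineage (chr2:71786886-71858427), and had 2.26 and 2.54 kb in OL of 129O1 and EpiSC5, compared with 0.58 and 0.73 kb in their OPC. Both OL lists were above both OPC lists, and the log2 change was 0.96 ± 0.20 (SE, limma adjusted p = 0.0199). Most of the difference was a region before the gene, chr2:71779263-71780885, with 1252 and 1623 bp in OL and none in OPC. Over the gene body alone Itga6 had 1.01 and 0.92 kb in the OL lists, against 0.58 and 0.73 kb in the OPC lists. SOX6 covered 0 kb of Itga6 in OL of EpiSC5, and 0.56 and 0.20 kb in OPC from 129O1 and EpiSC5.

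Itga7, which encodes a laminin receptor chain best known from muscle (chr10:128933421-128958286), had 6.57 and 5.12 kb in OL of 129O1 and EpiSC5, compared with 3.88 and 1.15 kb in their OPC, a log2 change of 0.99 ± 0.24 (SE, limma adjusted p = 0.0302). The OPC breadth lay in the flank, partly at Bloc1s1 and Rdh5. In the gene body itself, breadth was 2.23 and 1.93 kb in OL and 0 in both OPC lists. It included 2 regions held by OL alone, and chr10:128951371-128952598 overlapped SOX6 of all 3 lists, by 232 bp in OL of EpiSC5 and by 319 and 259 bp in OPC of 129O1 and EpiSC5. This site thus held SOX6 in OPC in both lines without an H3K27ac peak there in OPC. The SOX6 peaks themselves overlapped H3K27ac of OL from EpiSC5 alone. The 352 bp of OL from 129O1 in that region lay outside them. Without the EpiSC5 OPC list, in a fit with no term for line, the change of Itga7 was 0.51. With 50 kb each side it was 0.50 (limma adjusted p = 0.0351). The call of Itga7 was lost in 9 of 13 alternatives, and that of Itga6 in 4 of 12. Itga3, the remaining laminin-binding chain, was under the filter, with 1.35 and 0.51 kb in OL and 1.49 and 0.60 kb in OPC, all outside its body.

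Alpha v and the 5 beta chains it can pair with bind vitronectin, fibronectin and latent TGF-beta. They held 4 narrower genes of 6 tested and 0 wider, against 16.4% and 12.5% of all genes tested. This group was not among the subgroups planned beforehand. Itgav (chr2:83722303-83806917) had 4.83 and 3.40 kb in OL of 129O1 and EpiSC5, compared with 9.83 and 8.10 kb in their OPC. All OL values were below all OPC values, with a log2 change of −1.10 ± 0.18 (SE, limma adjusted p = 0.0112). Its start-site region chr2:83723119-83726190 was in all 4 lists. The inner region chr2:83739157-83742992 held 807 and 264 bp in OL, against 3836 and 3377 bp in OPC, and a 661 bp region in the body was in OPC alone. The SOX6 peak of highest fold at Itgav lay in that inner region in both OPC lists, with summits 16205 and 16226 bp past the start site and the authors' folds of 12.2 and 6.12 in 129O1 and EpiSC5.

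Itgb8, whose chain with alpha v activates latent TGF-beta (chr12:119162803-119238276), had 6.69 and 5.37 kb in the OL lists, against 10.8 and 10.7 kb in the OPC lists, with a log2 change of −0.87 ± 0.19 (SE, limma adjusted p = 0.0224). The region over its start site, chr12:119235197-119240460, held 2827 and 1911 bp in OL, against 5258 and 4706 bp in OPC. Itgb6, the epithelial partner of alpha v (chr2:60598292-60722603), was listed at 0 in both OL lists, against 2.90 and 1.96 kb in OPC, and both of its regions were held by OPC alone. Its log2 change of −1.82 ± 0.25 (SE, limma adjusted p = 0.00656) is set by the pseudocount, and was −3.47 with 0.25 kb and −0.88 with 50 kb each side. It lost its call in 1 of the 10 alternatives that tested it, and without either OPC list it was under the filter.

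Itgb5, a vitronectin receptor chain (chr16:33829665-33949338), had the largest difference between lines among the members, described further on. It had 2.93 and 0 kb in OL of 129O1 and EpiSC5, compared with 5.39 and 2.72 kb in their OPC, so before scaling OL of 129O1 was above OPC of EpiSC5. Its log2 change was −1.42 ± 0.33 (SE, limma adjusted p = 0.0261), from −0.74 in 129O1 and −2.10 in EpiSC5. Without the EpiSC5 OL list the change was −0.50, and without the 129O1 OL list it was −2.34. These fits had no term for line, so 1 line in OL was set against both in OPC. The call was lost in 7 of 12 alternatives.

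Itgb1 and Itgb3 of this group were not called. Itgb1, the common beta chain of most matrix receptors (chr8:128685654-128733579), had 3.35 and 2.76 kb in the OL lists, against 4.77 and 3.53 kb in the OPC lists, with all OL values below all OPC values after scaling and a log2 change of −0.45 ± 0.17 (SE, limma adjusted p = 0.0948). It had a 964 bp region in OL alone and a 972 bp region in OPC alone, the second with SOX6 in both OPC lists. Itgb3, the beta chain shared by platelets and alpha v receptors, had 2.11 and 1.95 kb in OL and 1.52 and 0.86 kb in OPC, a log2 change of 0.41 ± 0.20 (SE, limma adjusted p = 0.156). All 6 genes of the group had SOX6 in both OPC lists, against 31.2% of all genes. At Itgb6 no SOX6 peak was repeated between lines. Its peaks were chr2:60715004-60715270 in OPC of 129O1 and chr2:60611656-60611970 in OPC of EpiSC5. By body length that share was 23.1% under 50 kb, 45.8% at 50 to 100 kb and 72.4% at 100 kb or more.

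**Figure D2:**
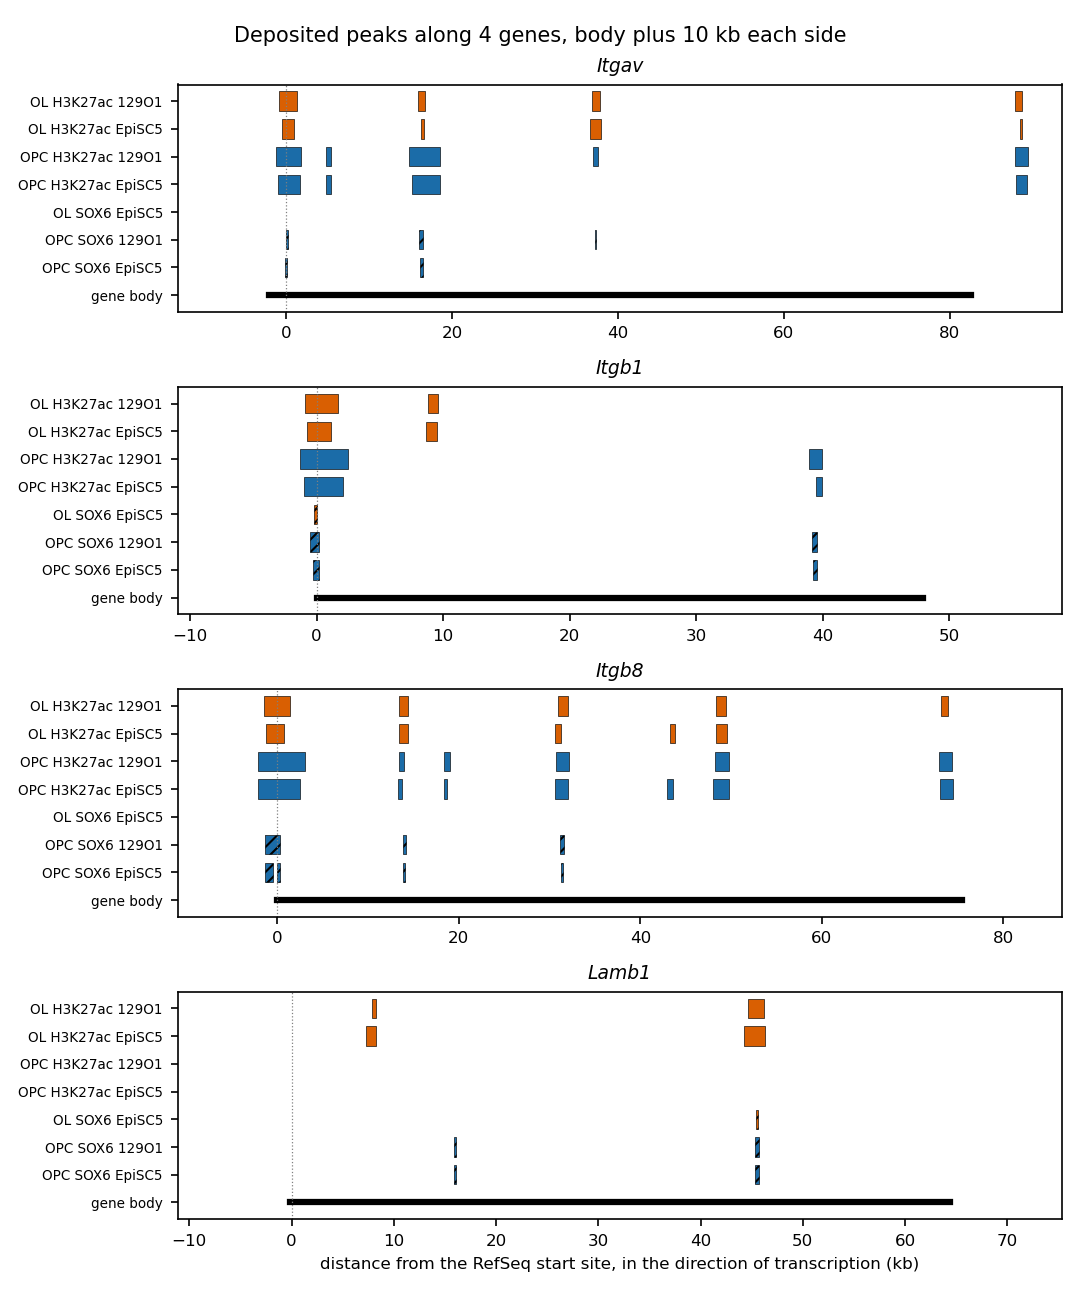
Deposited peaks along Itgav, Itgb1, Itgb8 and Lamb1 in kb from the RefSeq start site, in the direction of transcription, 1 row a list, with OL in orange and OPC in blue, SOX6 hatched and the gene body as a black bar. The start-site peaks of Itgav and Itgb8 are broader in OPC, and Lamb1 has H3K27ac in OL alone, at 2 sites, the wider with SOX6 in all 3 lists.

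Of the other 6 integrin chains tested, 1 was wider and 1 narrower. Itgae encodes the alpha chain that binds E-cadherin on epithelia (chr11:73090505-73147449), and had 1.05 and 0 kb in the OL lists, against 2.91 and 2.74 kb in the OPC lists, with a log2 change of −1.52 ± 0.31 (SE, limma adjusted p = 0.0193). Of this, 809 and 724 bp in OPC lay in the gene body, in a region shared with Haspin, and none did in OL. With 50 kb each side the change of Itgae was −0.41 (limma adjusted p = 0.0892), and its call was lost in 5 of 12 alternatives. Itgb7, a lymphocyte beta chain that pairs with it (chr15:102215994-102233405), had 2.63 and 1.55 kb in the OL lists, against 0.64 and 0.61 kb in the OPC lists, with a log2 change of 0.82 ± 0.23 (SE, limma adjusted p = 0.0437). In its body it had 1.97 and 0 kb in OL and 0 in both OPC lists, the rest lying in the flank at Zfp740 and Csad, and with 50 kb each side the change was −0.11. With equal numbers of peaks it was 0.54 (limma adjusted p = 0.277), and the call of Itgb7 was lost in 5 of 10 alternatives besides the reversal.

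The collagen-binding chains Itga1 and Itga2 had log2 changes of −0.03 ± 0.20 and 0.00 ± 0.20 (SE, limma adjusted p = 0.909 and 0.995). Itga1 had 3.80 and 3.52 kb in the OL lists, against 4.77 and 2.41 kb in the OPC lists, and Itga2 had 2.28 and 2.36 kb in the OL lists, against 2.79 and 1.57 kb in the OPC lists, so OL lay between the OPC lists at both. Itga9, a receptor chain for tenascin C and osteopontin, had the broadest acetylation of the integrins in OL of 129O1, with 13.2 and 7.82 kb in the OL lists, against 9.49 and 5.15 kb in the OPC lists. Its log2 change was 0.36 ± 0.17 (SE, limma adjusted p = 0.152), and the difference between lines, 129O1 over EpiSC5, was 0.46. Itgb4, the beta chain of hemidesmosomes, had 1.70 and 1.39 kb in OL and 1.24 and 1.27 kb in OPC, with a log2 change of 0.08 ± 0.20 (SE, limma adjusted p = 0.765). Its body held 1.10 and 1.03 kb in OL, all in 1 region of 1105 bp, and 0 in both OPC lists, the OPC breadth lying in the flank.

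**Figure D3:**
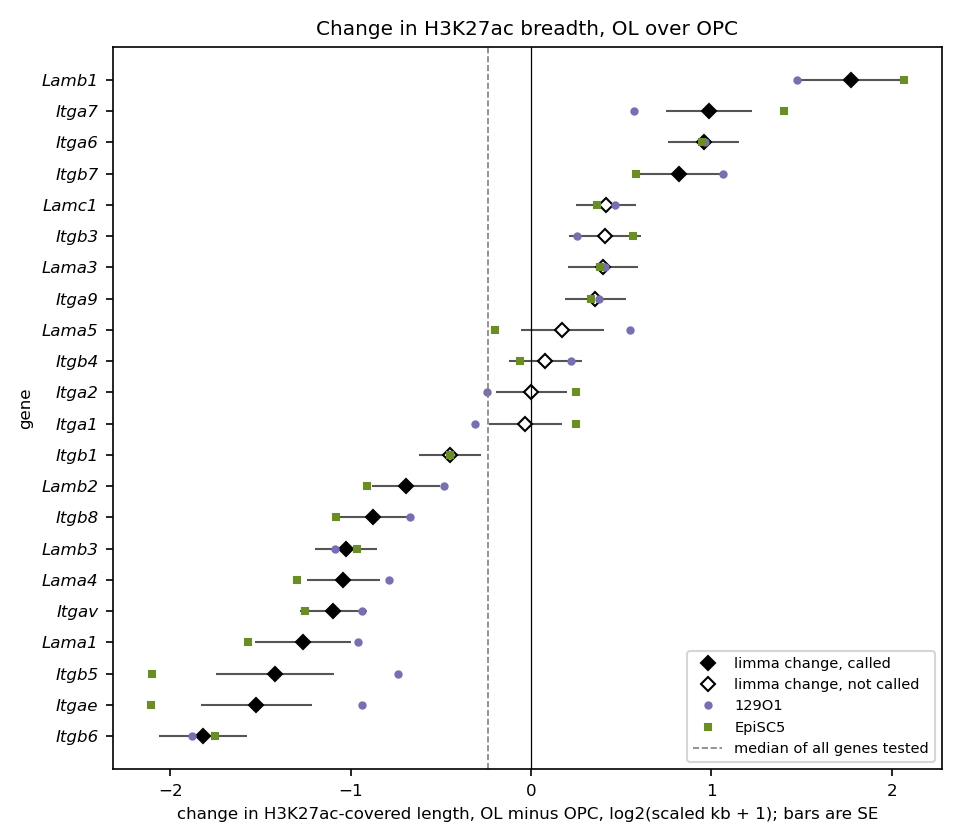
Change in H3K27ac breadth, OL minus OPC, on log2 of scaled kb plus 1, for 22 genes tested, with diamonds and bars for the limma estimate and SE (filled where called), purple circles for 129O1 and green squares for EpiSC5. The changes run from 1.77 at Lamb1 to −1.82 at Itgb6, and the dashed line is the median of all genes tested, −0.24.

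Of the laminin beta chains, Lamb1 was wider and Lamb2 and Lamb3 narrower in OL. Lamb1 encodes beta 1, part of the most widespread laminins (chr12:31265146-31329644), and had 2.02 and 3.09 kb in OL of 129O1 and EpiSC5, while it was listed at 0 in both OPC lists. The log2 change of 1.77 ± 0.28 (SE, limma adjusted p = 0.00892), the highest among the members, is set by the pseudocount, and was 3.41 with 0.25 kb and 0.80 with 50 kb each side. All of the breadth came from 2 body regions held by OL alone. The wider, chr12:31309508-31311595, overlapped SOX6 of all 3 lists, by 212 bp in OL of EpiSC5 and by 311 and 376 bp in OPC of 129O1 and EpiSC5. Their summits lay 45506 bp past the start site in OL, and 45511 and 45536 bp past it in OPC, with the authors' folds of 8.50 in OL and 8.85 and 11.8 in OPC. As at Itga7, the site held SOX6 in OPC without an H3K27ac peak. H3K27ac of OL overlapped these SOX6 peaks in both lines here, and in EpiSC5 alone at Itga7.

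Lamb2, which encodes the beta chain of synaptic and vascular laminins (chr9:108479847-108490530), had 3.12 and 1.59 kb in the OL lists, against 4.60 and 3.27 kb in the OPC lists, with a log2 change of −0.69 ± 0.19 (SE, limma adjusted p = 0.0407). The start-site region held 649 and 0 bp in OL, against 1855 and 711 bp in OPC, and the other region was shared with Usp19. Lamb3, a beta chain of epidermal laminin (chr1:193294353-193343878), had 1.34 and 1.19 kb in the OL lists, against 3.94 and 2.78 kb in the OPC lists, with a log2 change of −1.03 ± 0.17 (SE, limma adjusted p = 0.0110). A body region, chr1:193337740-193339288, was in OPC alone and overlapped SOX6 of both OPC lists. Without the EpiSC5 OL list, in a fit with no term for line, the change of Lamb2 was −0.44. Lamb2 lost its call in 9 of 13 alternatives and Lamb3 in 4 of 13.

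The laminin alpha chains held 2 narrower genes of 4 tested. Lama4, the alpha chain of vascular laminins (chr10:38965515-39110188), had 2.54 and 2.94 kb in the OL lists, against 4.98 and 7.38 kb in the OPC lists, with a log2 change of −1.04 ± 0.20 (SE, limma adjusted p = 0.0164). It had regions of both kinds, 2 in OPC alone and 1 in OL alone. The widest, chr10:39043319-39045983, held 2400 and 2665 bp in OPC with SOX6 of both OPC lists on 415 and 418 bp, and the OL region, chr10:39004988-39006225, held 1238 and 1060 bp. Lama1, the alpha chain of early embryonic basement membranes (chr17:67697127-67822645), had 0.63 and 0 kb in the OL lists, against 2.20 and 1.62 kb in the OPC lists, with a log2 change of −1.26 ± 0.27 (SE, limma adjusted p = 0.0213). Without the EpiSC5 OPC list, in a fit with no term for line, the change of Lama4 was −0.63. Lama4 lost its call in 7 of 14 alternatives and Lama1 in 2 of the 9 that tested it. The summed breadth of 6 endothelial markers was 1.90 and 3.45 kb in the OL lists and 3.84 and 3.55 kb in the OPC lists, with Cdh5, Cldn5 and Flt1 at 0 in all 4. That of 6 fibroblast and pericyte markers was 0.37 and 1.31 kb in the OL lists and 3.92 and 2.55 kb in the OPC lists, all of it at Col1a1, while Col1a2, Dcn, Lum, Pdgfrb and Rgs5 were at 0 in all 4. The part of such cells in Lama4 was not tested.

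Lama5 had 5.86 and 3.45 kb in the OL lists, against 3.49 and 3.52 kb in the OPC lists, with a log2 change of 0.17 ± 0.23 (SE, limma adjusted p = 0.561), and much of it lay in the flank at Adrm1. Lama3 had 1.33 and 2.44 kb in the OL lists, against 0.69 and 1.41 kb in the OPC lists, with a log2 change of 0.40 ± 0.19 (SE, limma adjusted p = 0.161), and OPC of EpiSC5 was above OL of 129O1. Lama2, the alpha chain whose loss affects myelin, was under the filter. It had 0.97 and 1.54 kb in OL of 129O1 and EpiSC5, compared with 0 and 0.80 kb in their OPC, over a body of 635.9 kb. None of its 3 regions was shared by lists, so no region of Lama2 was repeated in the second line.

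Among the gamma chains, Lamc1, which joins nearly all laminins, had the broadest acetylation of the laminins, with 13.4 and 12.2 kb in the OL lists, against 8.95 and 7.94 kb in the OPC lists. All OL values were above all OPC values, but the log2 change of 0.42 ± 0.17 was not called (SE, limma adjusted p = 0.107). It had 11 regions, 3 in all lists, 3 in OL alone, 1 of 1827 bp in OPC alone and 4 others. Over chr1:153296112-153299997, shared by all lists, OL held 3607 and 3091 bp and OPC 1883 and 1278 bp, with SOX6 on 452 and 409 bp in OPC of 129O1 and EpiSC5 and on none in OL. Lamc3 was under the filter, with 0.26 and 0 kb in OL and 2.72 and 0.58 kb in OPC, all in the flank.

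The leukocyte chains other than Itgae and Itgb7 were under the filter. Itgam and Itgax were listed at 0 in all 4 lists, and Itgad had 0.74 kb in OL of EpiSC5 alone. Itgb2, their beta chain and a marker of microglia among brain cells, had 0.66 and 1.06 kb in OL of 129O1 and EpiSC5, in a single region of 1061 bp held by OL alone, and was listed at 0 in both OPC lists. Of 10 microglia and leukocyte markers, 3 were tested and 1 was wider, Csf1r, with 2.78 and 1.68 kb in OL and 0 in both OPC lists. Aif1 and Tmem119, the others tested, changed by −0.33 and −0.08 and were not called. Fcgr3, under the filter, went the same way as Csf1r, with 2.32 and 0.735 kb in OL and 0.67 and 0 kb in OPC. Ptprc ran the other way, with 0 in both OL lists and 1.72 and 1.52 kb in OPC. P2ry12 had 0.67 and 0.35 kb in OL and 1.07 and 0.90 kb in OPC, and Tyrobp had 0.85 kb in OPC of 129O1 alone. Cx3cr1, Spi1 and Trem2 were listed at 0 in every H3K27ac list, and the summed breadth of the 10 was 10.5 and 5.89 kb in OL and 9.04 and 6.66 kb in OPC. The part of such cells in Itgb2 was not tested.

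The remaining genes under the filter were Itga8, Itga10, Itga11 and Itgal. Itga8 and Itga11 had no H3K27ac in OL, against 0.99 and 0.74 kb at Itga8 and 1.18 and 0.80 kb at Itga11 in OPC of 129O1 and EpiSC5. Itga10 had 0.43 and 0 kb in OL and 1.12 and 0.46 kb in OPC. Itgal had 0.24 and 1.16 kb in OL and 0.29 kb in both OPC lists, partly at Zfp768. None of these 4 had SOX6 in any list. Itga2b, the platelet alpha chain, is no member by the symbol rule, and was called narrower with 3.10 and 0.42 kb in the OL lists, against 5.14 and 3.84 kb in the OPC lists (log2 change −1.30 ± 0.32, SE, limma adjusted p = 0.0321).

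Between the lines, 129O1 over EpiSC5, limma called 0 of the 23 members and 11 of all 12459 genes tested (0.0883%). Raw p was under 0.05 for 5 members, among them Itga9, Itgb5, Lama3 and Lama4, and for 976 of all genes. The log2 differences were 0.46 at Itga9 and 1.16 at Itgb5, higher in 129O1, and −0.71 at Lama3 and −0.57 at Lama4, lower in 129O1. The lowest limma adjusted p among the members was 0.478.

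Merging the 4 lists gave 116 H3K27ac regions within the windows of the 36 genes. Of these, 29 were in all 4 lists, 16 in both OL lists alone, 15 in both OPC lists alone and 56 in other sets of lists. The shares were 25.0%, 13.8%, 12.9% and 48.3%, against 30.1%, 16.7%, 11.1% and 42.1% of all 49676 regions. The smallest p of an exact test of 2 lists against 2 is 0.33, and none was run on these counts. SOX6 peaks of both OPC lists overlapped 14 of the 29 shared regions, 2 of the 16 OL regions and 5 of the 15 OPC regions, where the shares of all such regions are 41.5%, 7.79% and 28.5%. The members' counts lay near these shares. The 2 OL regions were those of Itga7 and Lamb1, and both also overlapped SOX6 of OL. Of the 5 OPC regions, 4 lay at Itgb1, Lama3, Lama4 and Lamb3.

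SOX6 was present at 19 of the 36 genes in both OPC lists, 11 integrins and 8 laminins, and at 31.2% of all genes. By list, it was at 4 genes in OL of EpiSC5 (16.3% of all genes), at 21 in OPC of 129O1 (44.5%) and at 19 in OPC of EpiSC5 (32.6%). Long genes hold more peaks, so the shares were split by body length. Of members under 50 kb, 5 of 14 had SOX6 in both OPC lists, against 23.1% of genes of that length, of those of 50 to 100 kb 7 of 11, against 45.8%, and of those of at least 100 kb 7 of 11, against 72.4%. When each list was cut to its 3893 highest-scoring peaks, the 19 members became 6. The share of all genes at that setting was not computed. In EpiSC5, 4 members were lower in OL than in OPC by at least 1 on log2 of kb plus 1 (3.57% of all genes) and 0 higher (0.178%). A gene needs at least 1 kb of SOX6 in OPC to be lower by 1 on this scale. These shares were not split by body length. There is 1 OL list, so the difference has no replicate check and no test, and in lists of equal length 1 member was lower, Itga2.

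Itgb8 had most SOX6, with 0 kb in OL of EpiSC5, and 2.40 and 1.74 kb in OPC from 129O1 and EpiSC5. Of its peaks, the widest, 1705 bp in 129O1, lay over the start site. Itga2 had 0 kb in OL, and 1.32 and 1.24 kb in OPC, mostly from 1 peak of 1016 and 1032 bp near the far end of the gene, with folds of 15.8 and 16.2, inside H3K27ac peaks of all 4 lists. Itga9 had 0 kb in OL, and 1.96 and 1.24 kb in OPC, spread over 6 and 3 peaks. Lamc1 had 0 kb in OL, and 1.38 and 1.09 kb in OPC, with folds of up to 12.2 and 9.05. These were the 4 genes lower in OL by at least 1, and in EpiSC5 their differences on that scale were −1.45 at Itgb8, −1.17 at Itga2, −1.16 at Itga9 and −1.07 at Lamc1. As all 4 had 0 kb in OL, these differences restate their SOX6-covered length in OPC of EpiSC5. Lamb3 followed with 0 kb in OL, and 1.00 and 0.87 kb in OPC, too little in EpiSC5 to be lower by 1.

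Only 4 genes had SOX6 in OL, and each also had it in both OPC lists. Lama5 had 0.64 kb in OL of EpiSC5, and 0.41 and 0.37 kb in OPC from 129O1 and EpiSC5, all in the flank at Adrm1. Itgb1 had 0.28 kb in OL, and 1.00 and 0.73 kb in OPC. Itga7 had 0.27 kb in OL, and 0.48 and 0.26 kb in OPC, and Lamb1 had 0.21 kb in OL, and 0.57 and 0.63 kb in OPC. The OL list held less SOX6 than both OPC lists at Itgb1 and Lamb1, more at Lama5, and lay between them at Itga7. Lama1 and Itga3 had SOX6 in OPC of 129O1 alone, 1.44 kb at Lama1 and 0.21 kb at Itga3.

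**Figure D4:**
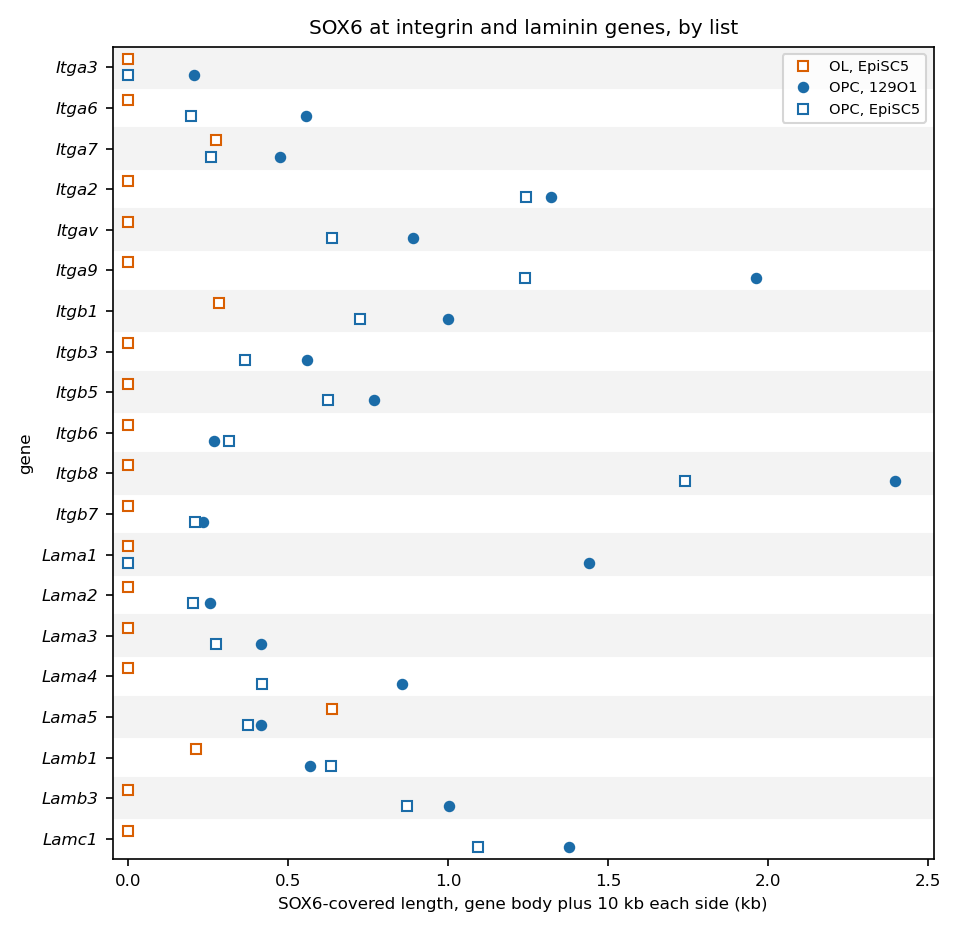
SOX6-covered length in kb (x axis, body plus 10 kb each side) at 20 members with SOX6 in a list, with OL of EpiSC5 as orange squares, OPC of 129O1 as filled blue circles and OPC of EpiSC5 as open blue squares. The OL points are at 0 except for Itga7, Itgb1, Lama5 and Lamb1.

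Single peaks repeated between lines. Near the members there were 4 SOX6 peaks in OL of EpiSC5, and 47 and 33 in OPC of 129O1 and EpiSC5. All 4 OL peaks overlapped an OPC peak of EpiSC5 (38.5% of all OL peaks do), and 4 of the 33 OPC peaks of EpiSC5 an OL peak (9.61% of all). Of the OPC peaks of 129O1, 31 or 66.0% overlapped one of EpiSC5 (60.8% of all), and of those of EpiSC5 32 or 97.0% overlapped one of 129O1 (90.3%). H3K27ac of the same state and line overlapped all 4 OL peaks, 31 of the 47 OPC peaks of 129O1 and 21 of the 33 of EpiSC5, where the shares of all peaks are 74.1%, 69.4% and 68.0%.

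Of the 18 tested members with SOX6 in both OPC lists, 4 were wider and 6 narrower in OL, and of all such genes 14.8% were wider and 19.2% narrower. Of the 5 without, 0 were wider and 3 narrower (Itgae, Lama1 and Lamb2), against 10.4% and 13.6% of all such genes. All 4 wider members had SOX6 in both OPC lists, as had 18 of the 23 tested members. Of all 1562 genes called wider, 912 had it. At Itgb7 the SOX6 lay in the flank.

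Genes that act with integrins and laminins were counted in 4 lists. Of the adhesion adaptors and kinases that sit at the inner side of integrins, 29 of 33 were tested, and 8 were wider and 6 narrower in OL. Tns3, a tensin of focal adhesions, changed by 2.42 ± 0.14 on the log2 scale (SE, limma adjusted p = 0.00195), with 100.5 and 87.5 kb in the OL lists, against 19.4 and 11.7 kb in the OPC lists. Bcar1, a docking protein for Src kinases, had 34.6 and 33.1 kb in the OL lists, against 6.80 and 5.47 kb in the OPC lists. Fyn, the Src-family kinase downstream of laminin receptors in oligodendrocytes, had 109.9 and 92.9 kb in the OL lists, against 33.0 and 30.8 kb in the OPC lists. Parvb was also wider, by 1.45, and Kank2 narrower, by −1.41.

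Of the genes of dystroglycan, the other laminin receptor of the lineage, and its dystrophin complex, 16 of 18 were tested, and 3 were wider and 6 narrower. Dag1, which encodes dystroglycan itself, had 4.04 and 4.64 kb in the OL lists, against 7.39 and 6.21 kb in the OPC lists, a log2 change of −0.66 ± 0.18 (SE, limma adjusted p = 0.0395). Dmd had 2.44 and 1.86 kb in the OL lists, against 11.6 and 9.01 kb in the OPC lists, and Sgce had 0.47 and 0.24 kb in the OL lists, against 6.18 and 3.89 kb in the OPC lists. Utrn and Sntb1 changed by −1.36 and −1.15, and Dtnb by 0.85.

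Of other basement membrane parts and integrin ligands, 14 of 24 were tested, and 3 were wider and 2 narrower. The wider were Col18a1, Nid1 and Col4a2, which encode parts of basement membranes, with log2 changes of 1.32, 1.18 and 0.78. The narrower were Ntn4, which encodes a laminin-related netrin, and Vcam1, at −1.57 and −0.92. Of tetraspanins and other integrin-associated membrane proteins, 15 of 16 were tested, and 5 were wider and 2 narrower. Tspan2, an oligodendrocyte tetraspanin, changed by 2.04, Cd47 by 1.32, Cd44 by 1.04 and Cd82 by 0.98, and Sdc3, a syndecan, by −2.01. As shares of the genes tested, the calls were 27.59% wider and 20.69% narrower for the adaptors and 18.75% and 37.5% for the dystroglycan complex. For the ligands they were 21.43% and 14.29%, and for the tetraspanin list 33.33% and 13.33%. The integrin and laminin genes had 17.39% and 39.13%, and all genes tested 12.54% and 16.38%.

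**Figure D5:**
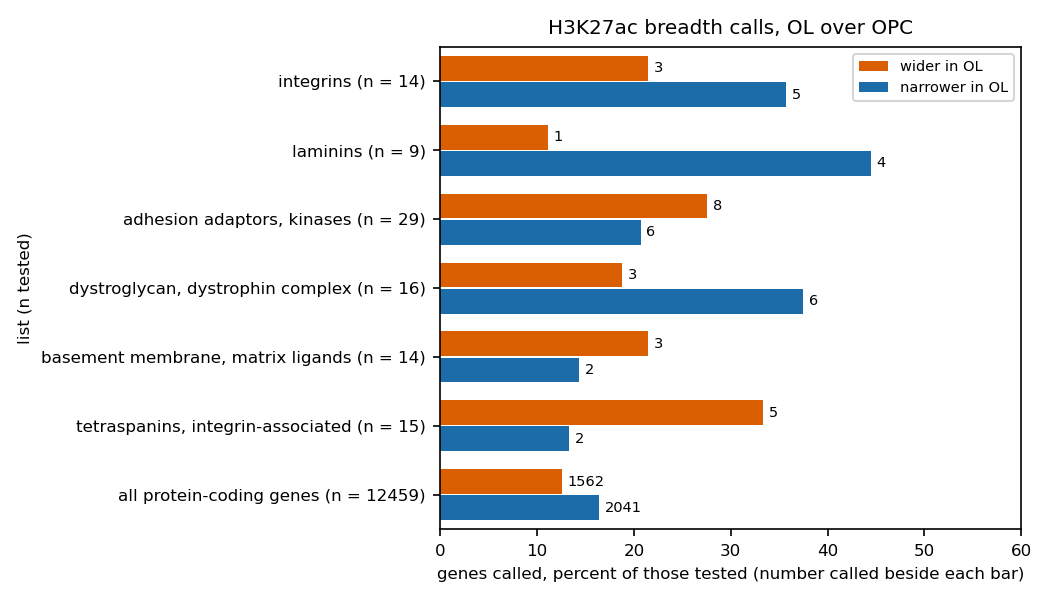
Share of tested genes called wider (orange) or narrower (blue) in OL than in OPC, in percent (x axis, from 0), with the number called beside each bar, for integrins, laminins, 4 lists of partner genes and all genes tested. Narrower calls outnumber wider ones for integrins, laminins and the dystroglycan complex, and in all genes tested.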

How the data were processed

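Peak lists of 7 ChIP-seq libraries were used, and the 2 input samples were not analysed here. The submitters' processing notes name the build mm10 and the tools Bowtie2 2.3.2, Trim Galore 0.3.1, bedtools, deepTools and Picard. Which program called the peaks, and against what control, is not given in the sources used here. The authors deposited a score, a fold enrichment (a ratio over background), −log10 p and −log10 q per peak, with 1 list per library. These values served to describe or rank peaks of the same list, and the lowest −log10 q in the lists was 3. Lists from deeper libraries are longer, which bears on every presence and breadth.

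Gene positions and promoter windows came from RefSeq (GRCm38.p6), which gives no exons here, so exonic and intronic sites were not told apart. Overlapping peaks of a list on chromosomes 1 to 19, X and Y were joined, and coordinates are 1-based. Breadth was tested with limma 3.58.1 in R 4.3.3. The model had terms for state and cell line and a trended prior (1 residual and 5.04 prior degrees of freedom). Where 1 list was left out, the model had a term for state alone and no same-sign rule. Changes and lost calls of those fits thus mix the missing list with the difference between lines. Benjamini-Hochberg adjustment ran over the genes whose mean scaled breadth reached 1 kb. The line entered the model because OL and OPC of a line share their source, and their deviations from the state means correlated at r = 0.273 across genes. The p-values reflect the spread of these 4 lists alone. Presence means an overlap of at least 1 bp. The procedure was tested on simulated data with breadths set far above the real ones, so genes listed at or near 0 were not checked.

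Members and lists were chosen with earlier results of these data known. One laminin gene is counted among the members, but its own values are not reported here. Each other tested member is given with its values, and regions and peaks by width or fold for called members and the 5 with most SOX6 in OPC. Partner genes are the up to 5 largest calls a list. Bloc1s1, Rdh5 and other neighbours, Itgb2, Csf1r and the other microglia and leukocyte markers, and Dag1 were added after values were seen. So were Lama2 and the remaining genes under the filter, and regions and sequences of genes not called.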

Additional observations from a re-analysis of the deposited data

Results flagged for a closer look

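At 4 of the 23 tested genes the change in H3K27ac breadth, OL minus OPC, ran one way in 129O1 and the other way in EpiSC5. The difference between the lines was not tested, since each line has 1 list a state, and 1916 of all 12459 genes tested also had opposite signs. At Itga1 the log2 change was −0.31 in 129O1 and 0.25 in EpiSC5, a difference of −0.56. At Itga2 it was −0.25 in 129O1 and 0.25 in EpiSC5, a difference of −0.50. At Itgb4 it was 0.22 in 129O1 and −0.06 in EpiSC5, a difference of 0.28. At Lama5 it was 0.55 in 129O1 and −0.20 in EpiSC5, a difference of 0.75. None of the 4 genes was called.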

How the results depend on the processing

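For the 13 called members, 91 alternative values kept direction and call, 65 kept direction without the call and 1 reversed. For 9 uncalled members, 106 kept direction and side of the threshold and 12 reversed. Members called wider and narrower numbered 1 and 4 with a filter of at least 3 kb, 1 and 7 over the gene body alone, 2 and 7 with equal numbers of peaks, and 0 and 0 without a filter (limma raw p under 0.05 for 17) or in the higher-scoring 50% of each list (7). All genes called wider and narrower numbered 1270 and 1207 at 3 kb, 1562 and 1143 without scaling, 2383 and 3659 with 50 kb each side, 1374 and 1014 over the body, 129 and 43 from the higher-scoring 50%, 1263 and 1230 with equal numbers of peaks, and 0 and 0 without a filter (4814 at raw p under 0.05). Wider calls were 43.35% of all calls with scaling and 57.74% without. Leaving out 1 list in turn gave 0 to 2 members wider and 0 to 8 narrower, and 0 to 1384 genes wider and 0 to 2897 narrower. The 0 came from leaving out either OPC list (raw p under 0.05 for 2857 and 2517 genes). Without the replicate block, 3 members were wider and 6 narrower, so the block changed calls within 1.5 times. The 11 genes called between lines became 0 with a pseudocount of 0.25 kb, without scaling, from the higher-scoring 50% and over the body (limma).

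Reversed changes were, without scaling, 0.0712 at Itga1, with 50 kb each side −0.54 at Itgb4 (limma adjusted p = 0.0435) and −0.11 at Itgb7, over the body −0.0491 at Itga2, from the higher-scoring 50% −0.0552 at Itga2, and with equal numbers of peaks 0.0842 at Itga1 and −0.014 at Itga2. Leaving out 1 list in turn gave −0.264 to 0.202 at Itga1, −0.149 to 0.153 at Itga2, −0.0416 to 0.202 at Itgb4 and −0.0442 to 0.392 at Lama5. For SOX6, members lower in OL by at least 1 numbered 2 from the higher-scoring 50%, 1 with equal numbers of peaks and 12 with a pseudocount of 0.25 kb, members with SOX6 in OL 9 with 50 kb each side, and members with SOX6 in both OPC lists 6 with equal numbers of peaks. Regions in all 4 lists numbered 15 where at least 50% of a region had to be covered. From the higher-scoring 50% of each list, 13 regions were in all lists, 9 in OL alone, 6 in OPC alone and 25 in other sets. The cause of these differences was not tested. The depth of each library is unknown, so no counting error can be given, and a gene listed at 0 may hold acetylation under the peak threshold.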
